A study of Mus musculus with 9 samples.

Results

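The genes examined were the 9 that encode the core machinery through which microRNAs and short hairpin RNAs (shRNAs) are processed and used: Drosha, Dgcr8, Xpo5, Dicer1, Tarbp2, Ago1, Ago2, Ago3 and Ago4. They were taken by name from the array rows that carry exactly 1 gene symbol, with the row of the highest mean standing for a gene that has several. All 9 of 9 had such a row, among 19938 genes tested. The 9 arrays (Affymetrix Mouse Gene 1.0 ST) came from immortalized mouse embryonic fibroblasts of ICR background, connective tissue cells grown in culture from mouse embryos. The cells were exposed for 2 h to an adenovirus that makes an shRNA, at 1e8 pfu per ml, and were harvested after 70 h in normal medium (10% serum, 37 degrees). In 3 arrays the shRNA was a scrambled control, in 3 it was directed at HSF1, the heat shock transcription factor, and in 3 at RPA1, a protein that coats single-stranded DNA as part of the RPA complex. All groups, the scrambled control included, therefore carried an adenovirus and an shRNA, and no array of uninfected cells was used. The labels name the target of each shRNA but not its sequence, and give no word on whether the arrays in 1 group are separate cultures, so each p-value measures the spread between these arrays only, which may be technical.

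A microRNA gene is transcribed as a long primary transcript, and the Microprocessor, made of the nuclease Drosha and its RNA-binding partner Dgcr8, cuts a hairpin out of it in the nucleus. Exportin-5 (Xpo5) carries the hairpin to the cytoplasm, where Dicer1 with Tarbp2 trims it to a short duplex, and an Argonaute protein takes up 1 strand and silences the messenger RNAs that match it. An shRNA expressed from a virus is made as a hairpin already and enters at the export and Dicer steps. The members that act from export onward, but not Drosha and Dgcr8, are therefore those the knockdown method itself relies on. In mammals Ago2 is the Argonaute best known for cutting a fully matched target.

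The knockdown was visible for the target that could be read. Rpa1 was at 11.40, 11.42 and 11.41 (log2 signal) in the scrambled arrays, at 11.35, 11.33 and 11.30 with HSF1 shRNA and at 9.42, 9.34 and 9.40 with RPA1 shRNA, which was 4.05-fold lower than the control (log2 difference -2.02 ± 0.04, limma adjusted p = 3.5e-08). The level of the HSF1 target was not analysed here. Over genes changed at least 2-fold in the other RPA1 arrays, RPA1 array 3 lay at 0.685 of their distance from the control, against 1.07 and 1.04 for arrays 1 and 2. Values without RPA1 array 3 are therefore given for the members except Dgcr8 and Xpo5, and for some of the other genes. Of the other genes named by rule for size, 26 of 27 kept their call against the control without it and 20 of 21 against HSF1 shRNA. Of 10 fibroblast markers, 9 lay above the median gene and 1, Thy1, below it. With RPA1 shRNA 7 of these 10 fell and 0 rose, where 14.7% of all genes were called lower and 15.4% higher. With HSF1 shRNA 4 fell and 1 rose, where 6.21% were called lower and 9.89% higher. Their summed linear signal ranged over 66298 to 66844 in the scrambled arrays, 59821 to 61768 with HSF1 shRNA and 48899 to 54135 with RPA1 shRNA. Of 6 neural markers 4 rose and 1 fell with RPA1 shRNA (3 and 0 with HSF1 shRNA), with sums of 4008 to 4391, 5105 to 5242 and 5944 to 6181 in the same order of groups. By mean level 4 of these 6 lay above the median gene, so the list may not mark neural cells here. Of 8 macrophage and blood markers 3 rose and 0 fell with RPA1 shRNA (2 and 0 with HSF1 shRNA), with sums of 1028 to 1135, 1267 to 1290 and 1800 to 2439. Of these the largest difference with RPA1 shRNA was 2.06 for Cd68, while the median over the list was 0.15. Other lists moved upward too. Of 7 muscle markers 3 rose and 0 fell with RPA1 shRNA (1 and 0 with HSF1 shRNA), with sums of 1486 to 1514, 1574 to 1670 and 1677 to 1876. Of 8 epithelial markers 1 rose and 0 fell with each shRNA, with sums of 1645 to 1679, 1895 to 1937 and 1725 to 1884. The part of these shifts in the results below was not tested, and in bulk RNA fewer cells of a type and less RNA per cell cannot be told apart.

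RefSeq (GRCm38.p6) gave a promoter sequence for 8 of the 9 members, and the 250 bases before the start site are shown for Drosha and Dgcr8, the pair that forms the Microprocessor, and for Dicer1 and Tarbp2, the pair that rose with both shRNAs. Capitals mark every match, on either strand, to the motifs searched.
Drosha, chr15:12824565-12824814 on the plus strand: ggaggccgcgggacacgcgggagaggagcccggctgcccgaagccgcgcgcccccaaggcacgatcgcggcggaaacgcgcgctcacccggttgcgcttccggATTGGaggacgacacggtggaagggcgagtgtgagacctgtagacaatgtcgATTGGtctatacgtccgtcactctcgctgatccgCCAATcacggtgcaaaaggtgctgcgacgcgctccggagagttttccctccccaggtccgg
Dgcr8, chr16:18289169-18289418 on the minus strand: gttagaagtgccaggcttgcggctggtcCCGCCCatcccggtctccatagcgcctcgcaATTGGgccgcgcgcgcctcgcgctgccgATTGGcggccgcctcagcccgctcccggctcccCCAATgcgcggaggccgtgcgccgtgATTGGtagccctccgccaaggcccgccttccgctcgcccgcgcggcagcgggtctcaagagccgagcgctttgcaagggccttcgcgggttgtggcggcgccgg
Dicer1, chr12:104751953-104752202 on the minus strand: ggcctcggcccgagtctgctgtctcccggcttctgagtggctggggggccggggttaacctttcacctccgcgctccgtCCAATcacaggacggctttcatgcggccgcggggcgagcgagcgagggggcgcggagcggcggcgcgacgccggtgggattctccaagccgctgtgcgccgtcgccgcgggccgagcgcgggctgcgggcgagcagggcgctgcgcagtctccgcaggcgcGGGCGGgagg
Tarbp2, chr15:102517942-102518191 on the plus strand: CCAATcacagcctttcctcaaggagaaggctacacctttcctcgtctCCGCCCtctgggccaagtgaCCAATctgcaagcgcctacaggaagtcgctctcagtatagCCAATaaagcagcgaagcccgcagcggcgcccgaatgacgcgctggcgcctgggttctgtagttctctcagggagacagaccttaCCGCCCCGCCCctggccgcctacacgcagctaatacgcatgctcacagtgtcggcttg
The 6 motifs searched were the CCAAT box (CCAAT), the GC box (GGGCGG), both dimer forms of the heat shock element to which HSF1 binds (GAANNTTC and TTCNNGAA), the NRF1 core and an E2F core (TTTCGCGC). CCAAT was found in 5 of the 8 members with a promoter (Drosha, Dgcr8, Dicer1, Tarbp2 and Ago1), against 33.8% of the 32851 promoters in the table. All 4 promoters printed above hold it, with 3 matches for Drosha, 4 for Dgcr8, 1 for Dicer1 and 3 for Tarbp2. GGGCGG was found in 7 of 8, the exception being Drosha, against 32.7% of all, and in Tarbp2 and Ago4 some of these matches overlap each other. The NRF1 core was found in Ago1 and Xpo5, against 3.74% of all promoters. Neither heat shock element form was found in any of the 8 (6.69% and 7.17% of all promoters hold them), nor was the E2F core (0.256%), which says only that these letters are not in this window. The members' promoters held 60.0 to 85.6% G and C, where the median over all promoters was 52.4%. CCAAT was found both in members that rose and in members that fell, and GGGCGG also in Ago3 and Ago4, which did not pass in any comparison.

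**Figure D1:**
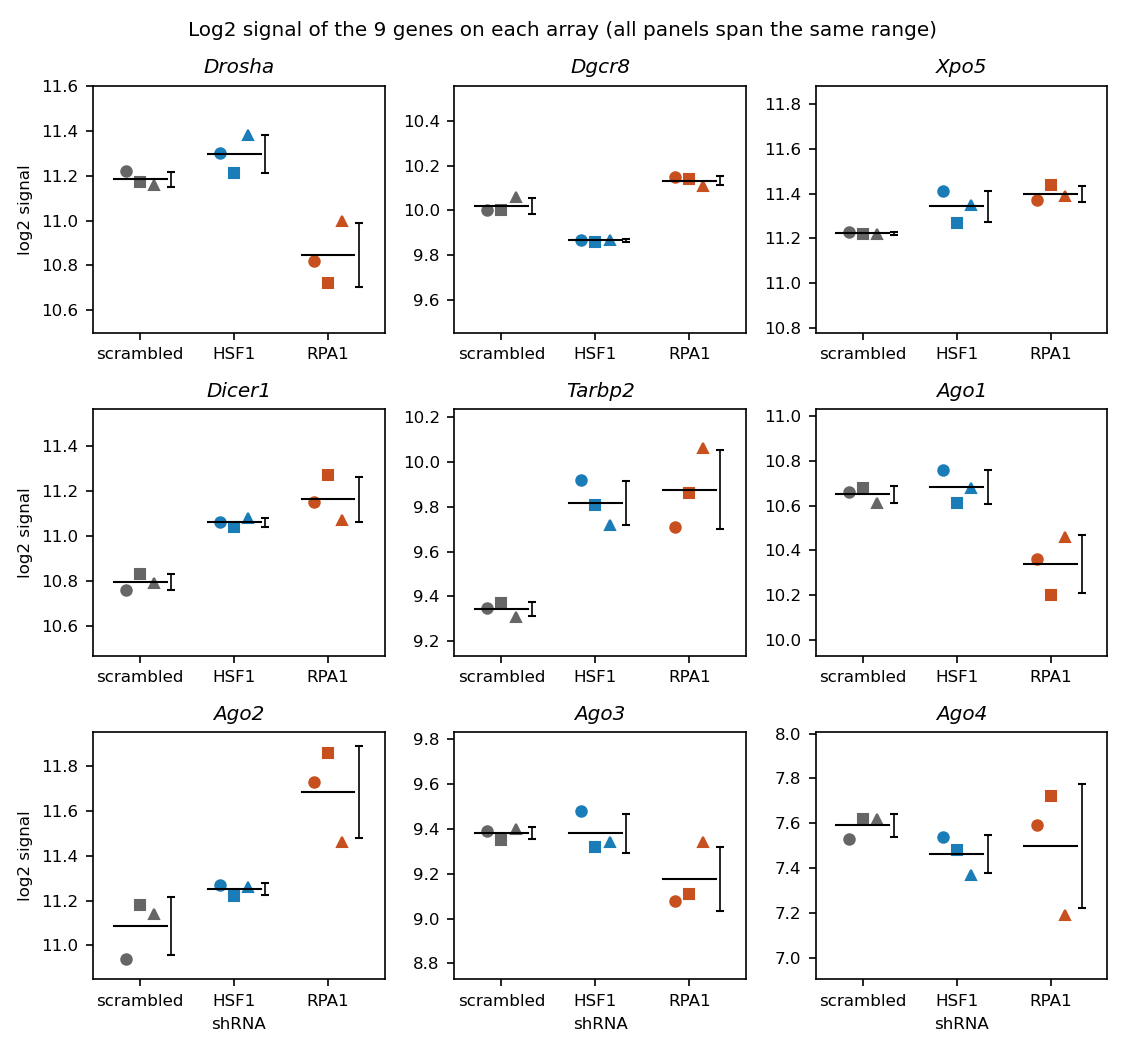
Log2 signal (vertical axis) of the 9 genes in each of the 9 arrays, with 3 points per group for scrambled, HSF1 and RPA1 shRNA (circle, square and triangle for arrays 1, 2 and 3), a line at each group mean and a bar of ± 1 SD. Drosha and Ago1 are lowest in the RPA1 arrays, Dicer1 and Tarbp2 lie above the control in both knockdown groups, and Ago2 is highest in the RPA1 arrays (11.73, 11.86 and 11.46).

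Drosha, the nuclease of the Microprocessor, was lower with RPA1 shRNA and not with HSF1 shRNA. Its log2 signal was 11.22, 11.17 and 11.16 in the scrambled arrays, 11.30, 11.21 and 11.38 with HSF1 shRNA and 10.82, 10.72 and 11.00 with RPA1 shRNA. The RPA1 arrays lay below all 6 others, and the HSF1 and scrambled arrays overlapped. RPA1 shRNA lowered it 1.26-fold against the control (log2 difference -0.34 ± 0.08, n = 3 arrays per group, limma adjusted p = 0.0077). Against HSF1 shRNA it was 1.37-fold lower (-0.45 ± 0.08, adjusted p = 0.0026). Without RPA1 array 3 these differences were -0.42 and -0.53. With HSF1 shRNA the difference from the control was 0.11 ± 0.08 (adjusted p = 0.37, 95% interval -0.06 to 0.28).

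Dgcr8, which recognises the primary transcript and holds Drosha on it, was lower with HSF1 shRNA and differed between the knockdowns in the direction opposite to Drosha. It read 10.00, 10.00 and 10.06 in the scrambled arrays, 9.87, 9.86 and 9.87 with HSF1 shRNA and 10.15, 10.14 and 10.11 with RPA1 shRNA. The 3 groups did not overlap, with the HSF1 arrays lowest and the RPA1 arrays highest. It fell 1.12-fold with HSF1 shRNA (-0.16 ± 0.04, limma adjusted p = 0.033), and this call was lost (adjusted p of 0.067 to 0.12) when any 1 of the 6 arrays compared was left out. The value with RPA1 shRNA was 0.11 ± 0.04 above the control and did not pass (adjusted p = 0.083, 95% interval 0.01 to 0.20). The direct difference between the knockdowns passed, 0.27 ± 0.04 higher with RPA1 than with HSF1 shRNA (adjusted p = 0.0021).

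The balance of both subunits was therefore followed within each array, where array-wide scaling cancels. Drosha minus Dgcr8 was 1.21, 1.17 and 1.10 in the scrambled arrays, 1.43, 1.34 and 1.51 with HSF1 shRNA and 0.67, 0.58 and 0.90 with RPA1 shRNA. These differences are between signals of different probes, so only their change between groups can be read. Against the control it was 0.27 higher with HSF1 shRNA and 0.45 lower with RPA1 shRNA (change of -0.45), and the groups did not overlap. Both changes, and the change of -0.72 between the knockdowns, had an exact two-sided permutation p of 0.1, the smallest that 3 arrays against 3 can give. The pairs of members used here and below were not among the planned comparisons. Drosha and Dgcr8 had already differed in opposite directions, so this separation adds no evidence beyond the values of each gene.

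**Figure D2:**
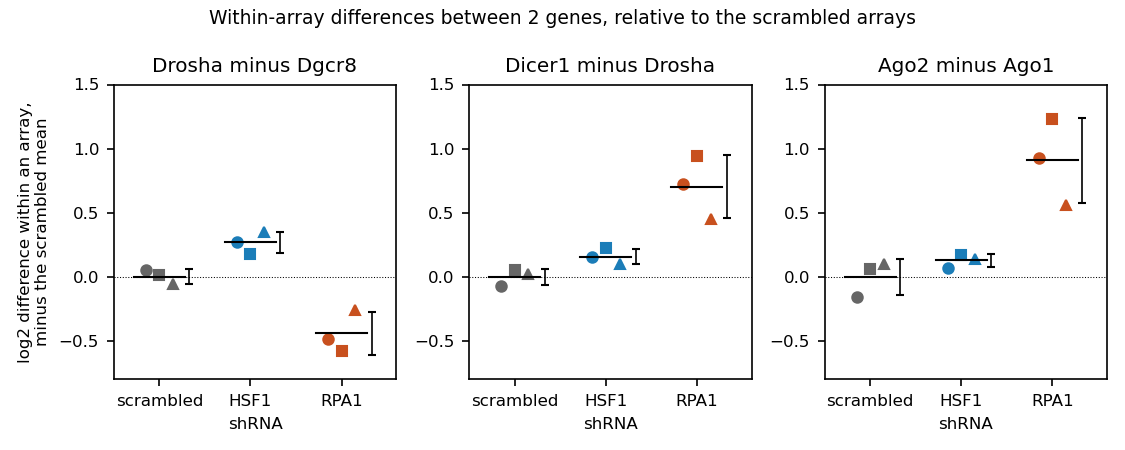
Differences in log2 signal between paired members within each array, minus the mean of the scrambled arrays (vertical axis), with 3 points per group (circle, square and triangle for arrays 1, 2 and 3), the group mean as a line and a bar of ± 1 SD. Drosha minus Dgcr8 is above the control in the HSF1 arrays (0.27) and below it in the RPA1 arrays (-0.45), and Dicer1 minus Drosha and Ago2 minus Ago1 are highest in the RPA1 arrays (0.70 and 0.91).

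Xpo5, the exporter of hairpin precursors, rose with RPA1 shRNA by a small amount. It was at 11.23, 11.22 and 11.22 in the scrambled arrays, 11.41, 11.27 and 11.35 with HSF1 shRNA and 11.37, 11.44 and 11.39 with RPA1 shRNA. All arrays of both knockdowns lay above all scrambled arrays, and the knockdowns overlapped each other. The rise with RPA1 shRNA was 1.13-fold (0.18 ± 0.05, limma adjusted p = 0.022). It did not pass without scrambled array 1, 2 or 3 (adjusted p of 0.054, 0.061 and 0.065) or without RPA1 array 2 (0.16, adjusted p = 0.069). With HSF1 shRNA the difference was 0.12 ± 0.05 (adjusted p = 0.13, 95% interval 0.01 to 0.23), and between the knockdowns 0.06 ± 0.05 (adjusted p = 0.48, -0.05 to 0.17).

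Dicer1, the nuclease that cuts hairpins to microRNA length, was higher with both shRNAs than with the scrambled control. Its log2 signal was 10.76, 10.83 and 10.79 in the scrambled arrays, 11.06, 11.04 and 11.08 with HSF1 shRNA and 11.15, 11.27 and 11.07 with RPA1 shRNA. All 6 knockdown arrays lay above the 3 scrambled arrays. It rose 1.20-fold with HSF1 shRNA (0.27 ± 0.06, limma adjusted p = 0.012) and 1.29-fold with RPA1 shRNA (0.37 ± 0.06, adjusted p = 0.0011), or 0.41 without RPA1 array 3. Without scrambled array 1 the HSF1 value was 0.25 and its adjusted p 0.051. The knockdowns overlapped and differed by 0.10 ± 0.06 (adjusted p = 0.25, 95% interval -0.03 to 0.23).

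Tarbp2, the double-stranded RNA binding partner of Dicer, rose with both shRNAs as well. It was at 9.35, 9.37 and 9.31 in the scrambled arrays, 9.92, 9.81 and 9.72 with HSF1 shRNA and 9.71, 9.86 and 10.06 with RPA1 shRNA. The scrambled arrays lay below all 6 others, and the knockdown groups overlapped. The rise was 1.39-fold with HSF1 shRNA (0.48 ± 0.09, limma adjusted p = 0.0057) and 1.45-fold with RPA1 shRNA (0.53 ± 0.09, adjusted p = 0.0013), or 0.44 without RPA1 array 3. The difference between the knockdowns was 0.06 ± 0.09 (adjusted p = 0.69, 95% interval -0.13 to 0.25). A second array row with the Tarbp2 symbol gave 0.39 ± 0.09 (limma adjusted p = 0.015) and 0.48 ± 0.09 (adjusted p = 0.0026) against the control. Whether both rows read the same sequence was not tested. Tarbp2 was the member called against the control in both knockdowns under every alternative run, and the only one called with HSF1 shRNA under all of them.

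Prkra (PACT), the paralogous Dicer partner, is not a member but stands in the same position in the pathway. It read 9.18, 9.25 and 9.28 in the scrambled arrays, 9.33, 9.07 and 9.05 with HSF1 shRNA and 8.85, 8.84 and 8.67 with RPA1 shRNA. It fell by 0.45 ± 0.08 with RPA1 shRNA (limma adjusted p = 0.0027), the comparison in which Tarbp2 rose.

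Ago1, an Argonaute that silences without cutting, was lower with RPA1 shRNA. It was at 10.66, 10.68 and 10.61 in the scrambled arrays, 10.76, 10.61 and 10.68 with HSF1 shRNA and 10.36, 10.20 and 10.46 with RPA1 shRNA. The RPA1 arrays lay below all others, and the HSF1 and scrambled arrays overlapped. It fell 1.24-fold against the control (-0.31 ± 0.07, limma adjusted p = 0.0084) and was 1.27-fold lower than with HSF1 shRNA (-0.34 ± 0.07, adjusted p = 0.0072), or -0.37 and -0.40 without RPA1 array 3. With HSF1 shRNA it differed from the control by 0.03 ± 0.07 (adjusted p = 0.82, 95% interval -0.13 to 0.19).

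Ago2, the slicing Argonaute, rose with RPA1 shRNA. Its difference was the largest of the 9 genes over all arrays, but Tarbp2 was ahead of it without RPA1 array 1 (0.62 against 0.57), RPA1 array 2 (0.54 against 0.51) or scrambled array 1 (0.54 against 0.52). It was at 10.94, 11.18 and 11.14 in the scrambled arrays, 11.27, 11.22 and 11.26 with HSF1 shRNA and 11.73, 11.86 and 11.46 with RPA1 shRNA. The RPA1 arrays lay above all 6 others, with array 3 nearest to them. The rise was 1.51-fold against the control (0.59 ± 0.10, limma adjusted p = 0.0016) and 1.35-fold against HSF1 shRNA (0.44 ± 0.10, adjusted p = 0.011). Without RPA1 array 3 these differences were 0.71 and 0.55. The HSF1 arrays lay above the scrambled arrays by 0.16 ± 0.10, which did not pass (adjusted p = 0.34, 95% interval -0.06 to 0.38). A second Ago2 row gave 0.74 ± 0.15 with RPA1 shRNA (adjusted p = 0.0043) and 0.06 ± 0.15 with HSF1 shRNA (adjusted p = 0.85).

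Ago3 and Ago4, the remaining Argonautes, did not pass in any comparison. Ago3 was at 9.39, 9.35 and 9.40 in the scrambled arrays, 9.48, 9.32 and 9.34 with HSF1 shRNA and 9.08, 9.11 and 9.34 with RPA1 shRNA. Its RPA1 arrays lay below the scrambled arrays, array 3 by the least, and the HSF1 arrays overlapped both groups. The difference with RPA1 shRNA was -0.20 ± 0.08 (limma adjusted p = 0.071, 95% interval -0.37 to -0.03), and without RPA1 array 3 it was -0.29 with an adjusted p of 0.0038. Against HSF1 shRNA it was -0.21 ± 0.08 (adjusted p = 0.078), or -0.29 with an adjusted p of 0.0041 without RPA1 array 3. Ago4 was at 7.53, 7.62 and 7.62 in the scrambled arrays, 7.54, 7.48 and 7.37 with HSF1 shRNA and 7.59, 7.72 and 7.19 with RPA1 shRNA. Its RPA1 arrays spread around the control, with array 3 lowest, and the differences from the control were -0.12 ± 0.12 with HSF1 shRNA (adjusted p = 0.55, 95% interval -0.39 to 0.14) and -0.09 ± 0.12 with RPA1 shRNA (adjusted p = 0.63, -0.35 to 0.17). Without RPA1 array 3 the RPA1 value of Ago4 was 0.07.

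Ago3, Ago1 and Ago4 are 3 consecutive protein-coding genes on chromosome 4 (GRCm38.p6), and Ago2 lies on chromosome 15. With RPA1 shRNA the values of these neighbours were -0.20, -0.31 and -0.09, of which only that of Ago1 passed, while Ago2 was 0.59 above the control. Ago2 minus Ago1 was 0.28, 0.50 and 0.54 in the scrambled arrays, 0.51, 0.61 and 0.58 with HSF1 shRNA and 1.37, 1.67 and 1.00 with RPA1 shRNA. The RPA1 arrays lay above the others, with a change of 0.91 against the control and 0.78 against HSF1 shRNA, each with an exact two-sided permutation p of 0.1, the smallest possible. With HSF1 shRNA the change was 0.13 (exact permutation p = 0.2). Ago2 minus Ago3 differed by 0.80 with RPA1 shRNA and by 0.16 with HSF1 shRNA (exact permutation p of 0.1 and 0.2). The same within-array measure for the nucleases, Dicer1 minus Drosha, was -0.46, -0.34 and -0.37 in the scrambled arrays, -0.24, -0.17 and -0.29 with HSF1 shRNA and 0.33, 0.55 and 0.06 with RPA1 shRNA. It was higher than the control by 0.15 and 0.70 (exact permutation p = 0.1 for both), and every knockdown array lay above every scrambled array. With RPA1 shRNA the genes of each pair had already differed from the control in opposite directions. Their separation therefore adds no evidence beyond the values of each gene.

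**Figure D3:**
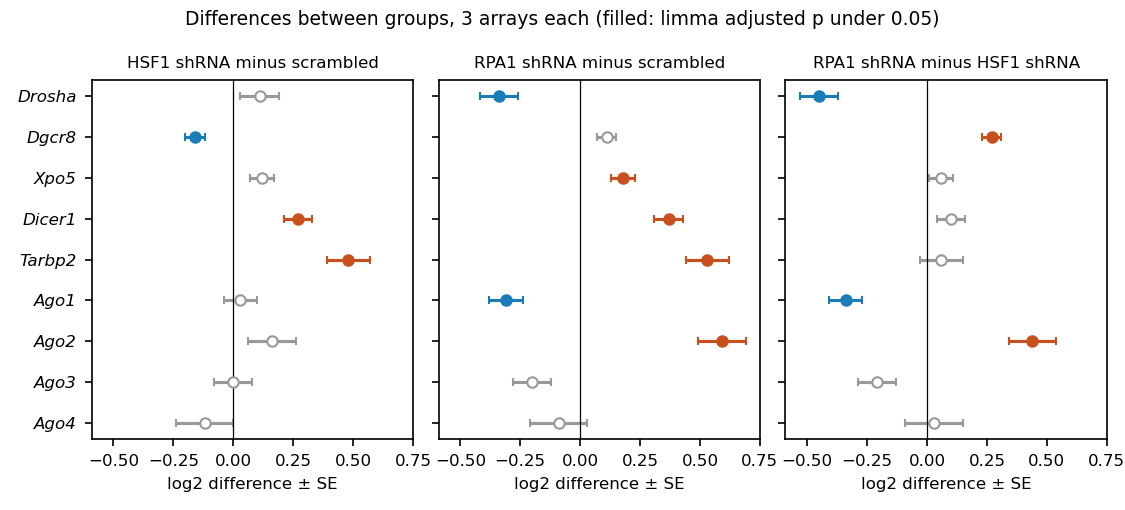
Log2 differences of the 9 genes (horizontal axis) in the 3 comparisons, as the limma estimate with a bar of ± 1 SE, filled where the adjusted p is under 0.05. With RPA1 shRNA, Ago2, Tarbp2, Dicer1 and Xpo5 lie to the right of 0 and Drosha and Ago1 to the left, and with HSF1 shRNA Tarbp2 and Dicer1 lie to the right and Dgcr8 to the left.

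Counted over the 9 members, 3 were called with HSF1 shRNA (33.3%; 2 rose, Dicer1 and Tarbp2, and 1 fell, Dgcr8), where 16.1% of all genes were called. With RPA1 shRNA 6 were called (66.7%; 4 rose, Dicer1, Xpo5, Ago2 and Tarbp2, and 2 fell, Drosha and Ago1), where 30.1% of all genes were called. Between the knockdowns 4 differed (44.4%; Dgcr8 and Ago2 higher with RPA1 shRNA, Drosha and Ago1 lower), where 24.4% of all genes did. The groups did not overlap for 5, 8 and 4 members in these comparisons, against 37.9%, 41.0% and 34.5% of all genes. The members' median difference was 0.11 with HSF1 shRNA (range -0.16 to 0.48), 0.11 with RPA1 shRNA (-0.34 to 0.59) and 0.06 between the knockdowns (-0.45 to 0.44), beside 0.04, 0.02 and -0.02 over all genes. These were small changes, none of a member reaching 2-fold, and nothing about the list can be called particular from counts of 9. Leaving out scrambled array 1 reduced the HSF1 count to 1, and leaving out RPA1 array 3 raised the RPA1 count to 7. Over all genes the calls with HSF1 shRNA were 1971 higher and 1239 lower, and with array medians made equal 1593 higher and 1717 lower, while the member calls in both directions were the same in number (2 and 1) under median, quantile and cyclic loess scaling. Both knockdowns were compared with the same scrambled arrays, so their values for a member are not independent.

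The genes closest in pattern to each called member over the 9 arrays were found by the root mean square (RMS) difference of centred log2 values, as a description with no test. Dicer1 was followed most closely by Rab5c (RMS 0.021), Dnajc13 (0.028) and Togaram1 (0.032), and Drosha by Tmem109 (0.047), Stag1 (0.048) and Zbtb8os (0.048). The nearest to Dgcr8 were Tmem209 (0.029), Fermt2 (0.032) and Gng12 (0.034), and to Xpo5 Cherp (0.023), Eif1ad (0.025) and Chchd3 (0.028). Ago1 was nearest to Csnk1g3 (0.037), Ints7 (0.041) and Tcaf1 (0.041), Ago2 to Angel1 (0.052), Nav2 (0.053) and Fam53a (0.056), and Tarbp2 to Hectd2 (0.045), Prkrip1 (0.050) and Ppp1r2 (0.053). No member was among the 3 nearest of another. The members' own RMS around their mean ran from 0.083 for Xpo5 to 0.276 for Ago2.

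The members work with cofactors, and a list of 83 such genes in 7 roles was examined, of which 79 were tested. With HSF1 shRNA 21 of the 79 were called (26.6%, 13 rose and 8 fell), with RPA1 shRNA 33 (41.8%, 19 rose and 14 fell), and 22 differed between the knockdowns (27.8%, 11 in each direction), where the shares over all genes were 16.1%, 30.1% and 24.4%. The median difference of the 79 was 0.04, 0.00 and -0.01. The HSF1 split turned with scaling, to 10 higher and 13 lower with median scaling, 11 and 11 with quantile scaling and 11 and 12 with cyclic loess. The split between the knockdowns became 14 higher and 9 lower with median scaling. The HSF1 count was 13 without scrambled array 3. The count between the knockdowns was 14 without HSF1 array 2 and 12 without HSF1 array 3, RPA1 array 1 or RPA1 array 2.

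Around the Microprocessor, 3 of 9 cofactors were called with each shRNA (33.3%, against 16.1% of all genes with HSF1 shRNA and 30.1% with RPA1 shRNA, the latter share near the background). Ncbp1, a subunit of the nuclear cap-binding complex, rose by 0.31 ± 0.05 with HSF1 shRNA (limma adjusted p = 0.0044) and by 0.20 ± 0.05 with RPA1 shRNA (0.017). Srrt (ARS2), which joins that complex to primary microRNA transcripts, rose by 0.23 ± 0.07 with both (0.045 and 0.027). Ddx17, an RNA helicase of the Microprocessor, fell by 0.22 ± 0.06 with HSF1 shRNA (0.041), and Mettl3, which methylates primary transcripts, fell by 0.18 ± 0.05 with RPA1 shRNA (0.018). Ncbp2, the other cap-binding subunit, named after its values were seen, did not pass with either (0.09, adjusted p = 0.51, and 0.18, adjusted p = 0.12). Without RPA1 array 3 the RPA1 value of Srrt was 0.18 and did not pass (adjusted p = 0.058).

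For nuclear export and the Ran cycle that powers Xpo5, 2 of 5 genes were called with RPA1 shRNA, both higher. That was 40.0%, against 30.1% of all genes called (15.4% higher). With HSF1 shRNA 1 was called, lower (20.0%, against 16.1% of all genes called, 6.21% lower). Either share was near the background and rests on 5 genes. Rangap1, which triggers hydrolysis of GTP on Ran in the cytoplasm, was at 10.68, 10.68 and 10.66 in the scrambled arrays, 10.62, 10.64 and 10.75 with HSF1 shRNA and 11.27, 11.33 and 11.23 with RPA1 shRNA. It rose by 0.60 ± 0.05 with RPA1 shRNA (limma adjusted p = 4e-05) and was 0.61 ± 0.05 higher than with HSF1 shRNA (0.00012). Rcc1, the nuclear exchange factor of Ran, rose by 0.42 ± 0.07 with RPA1 shRNA (0.0014). Xpo1, a related exporter, fell by 0.27 ± 0.05 with HSF1 shRNA (0.004).

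Among 16 Dicer partners and Argonaute loading factors, 6 rose and 1 fell with HSF1 shRNA (43.8%, against 16.1% of all genes), and 3 rose and 5 fell with RPA1 shRNA (50%, against 30.1%). Ptges3 (p23), a co-chaperone of HSP90, fell by 0.38 ± 0.06 with HSF1 shRNA (limma adjusted p = 0.0038) and was 0.42 ± 0.06 higher with RPA1 than with HSF1 shRNA (0.0015). Hsp90aa1, the inducible HSP90 that helps load Argonaute, rose by 0.29 ± 0.05 with HSF1 shRNA (0.0043) and by 0.30 ± 0.05 with RPA1 shRNA (0.0014). The other HSP90 form, Hsp90ab1, was not analysed here. Ptges3 and Hsp90aa1 each have 3 array rows, and only the row of the highest mean is given for each. These 2 rows are numbered among rows of chromosome 4 and chromosome 11 genes, while Ptges3 and Hsp90aa1 lie on chromosomes 10 and 12. Whether the rows read these genes themselves was not tested. The chaperone cofactors Ahsa1 (0.23, 0.018) and Dnaja2 (0.20, 0.016), which fall outside the rule for naming genes and were chosen after their values were seen, also rose with HSF1 shRNA. Ddx20, a helicase found in Argonaute complexes, rose by 0.35 ± 0.07 with HSF1 shRNA (0.0082), and Mov10, an Argonaute-bound helicase, by 0.29 ± 0.05 (0.0046). Fmr1, the fragile X RNA-binding protein, fell by 0.55 ± 0.12 with RPA1 shRNA (0.007). Without RPA1 array 3 the value of Fmr1 was -0.72. Fkbp5, an HSP90 co-chaperone, rose with HSF1 shRNA (0.26 ± 0.07, adjusted p = 0.024) and fell with RPA1 shRNA (-0.22 ± 0.07, 0.033), with a difference of -0.48 ± 0.07 between them (0.001).

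Downstream of the Argonautes, 4 of 26 silencing and decay factors were called with HSF1 shRNA (1 rose, 3 fell; 15.4%, against 16.1% of all genes) and 10 with RPA1 shRNA (6 rose, 4 fell; 38.5%, against 30.1%). The HSF1 share was at the background. The 3 GW182 proteins, which bind Argonaute and recruit the deadenylases, were all called with RPA1 shRNA, 2 higher and 1 lower. Tnrc6a rose with HSF1 shRNA (0.39 ± 0.08, limma adjusted p = 0.0079) and with RPA1 shRNA (0.25 ± 0.08, 0.034), Tnrc6c rose with RPA1 shRNA (0.31 ± 0.06, 0.0047) and Tnrc6b fell with it (-0.49 ± 0.09, 0.0023). Of the deadenylases, Pan2 fell by 0.33 ± 0.07 with HSF1 shRNA (0.011) and Cnot6 by 0.37 ± 0.08 with RPA1 shRNA (0.0074). Dcp1a, a cofactor of decapping, rose by 0.46 ± 0.15 with RPA1 shRNA (0.041). Its RPA1 arrays were at 10.92, 10.93 and 10.28 and its scrambled arrays at 10.20, 10.29 and 10.28, so array 3 lay within the control, and without it the difference was 0.67.

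In microRNA tailing and turnover, 2 of 12 genes rose with HSF1 shRNA (16.7%, against 16.1% of all genes called, so at the background), and 3 rose and 2 fell with RPA1 shRNA (41.7%, against 30.1%). Pnpt1, the mitochondrial polynucleotide phosphorylase, rose by 0.46 ± 0.07 and 0.47 ± 0.07 (limma adjusted p of 0.0024 and 0.00077). Zswim8, the ubiquitin ligase adaptor that removes Argonaute engaged on certain targets, rose by 0.41 ± 0.07 with RPA1 shRNA (0.0013), as did Tut1, a terminal uridylyl transferase (0.42 ± 0.07, 0.0022). The 3 germline PIWI genes were called in 0 comparisons by limma.

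Other proteins that bind or edit double-stranded RNA, and could meet the same hairpins, held the partner with the largest change. Of the 8 tested, 4 were called with HSF1 shRNA (2 rose, 2 fell) and 5 with RPA1 shRNA (3 rose, 2 fell). These were 50% and 62.5%, against 16.1% and 30.1% of all genes. Strbp was at 10.85, 11.03 and 11.10 in the scrambled arrays, 10.52, 10.47 and 10.38 with HSF1 shRNA and 9.77, 9.96 and 9.96 with RPA1 shRNA, a stepwise order of groups with no overlap. It fell by 0.53 ± 0.08 and by 1.09 ± 0.08 (limma adjusted p of 0.0024 and 1.7e-05). Strbp has 2 array rows, and only the row of the highest mean is given. Adar, which edits adenosine in double-stranded RNA, was at 10.56, 10.39 and 10.43, then 10.95, 10.84 and 10.85, then 11.27, 11.05 and 10.97 in the same order. It rose by 0.42 ± 0.08 and 0.64 ± 0.08 (0.0076 and 0.00034). Eif2ak2 (PKR), the kinase activated by double-stranded RNA, rose by 0.49 ± 0.08 and 0.59 ± 0.08 (0.0045 and 0.00065). Both genes lay above the control in every knockdown array. They are known to be inducible by interferon, but whether interferon had a part in their rise was not tested. Adarb1 fell by 0.31 ± 0.05 with RPA1 shRNA (limma adjusted p = 0.0019) and Stau1 by 0.18 ± 0.05 with HSF1 shRNA (0.045). The direction thus differed among the called genes of this list. Outside the list, Tarbp2, known as an inhibitor of PKR, was higher with RPA1 shRNA and Prkra, a known activator of PKR, was lower.

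**Figure D4:**
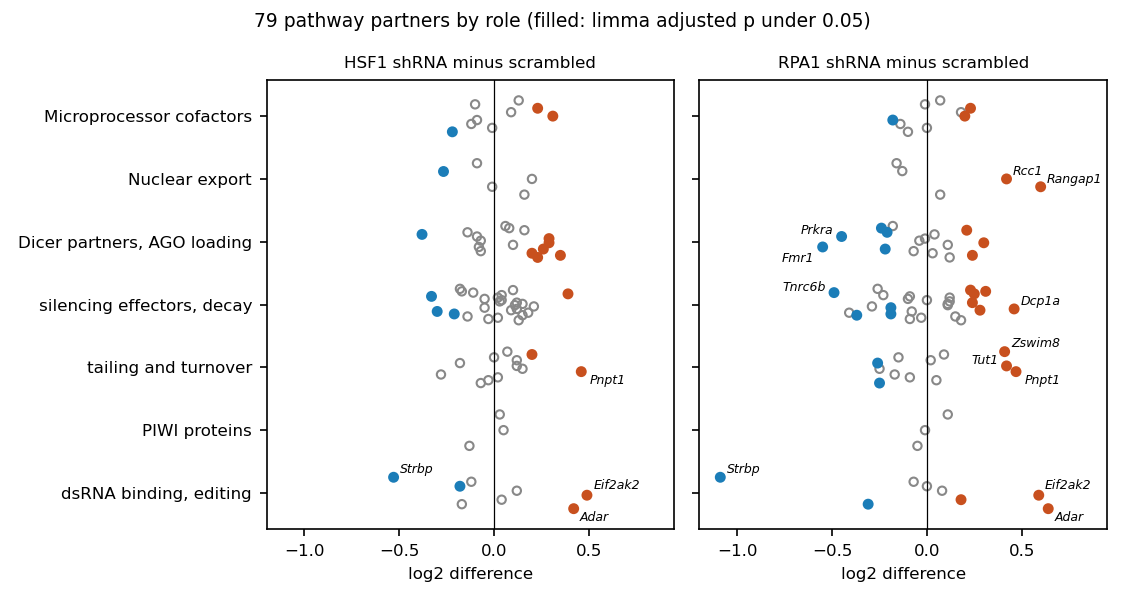
Log2 differences (horizontal axis) of the 79 tested pathway partners in 7 role groups (vertical axis), 1 point per gene, filled where the limma adjusted p is under 0.05. Strbp lies farthest to the left in both comparisons, at -0.53 and -1.09, and Adar and Eif2ak2 to the right.

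The array also carries rows for microRNA genes, the substrates of these enzymes, and 300 were tested. Such a row reads RNA from the microRNA locus, and primary transcript, hairpin and mature form were not told apart. Only 31 of the 300 lay above the median gene, so most were dim. With HSF1 shRNA 18 rows were called (6%), 2 higher and 16 lower, where 9.89% of all genes were called higher and 6.21% lower. With RPA1 shRNA 27 were called (9%), 0 higher and 27 lower, where 15.4% and 14.7% of all genes were. The calls were thus nearly all downward while their share was below that of all genes, and the median difference of the 300 was -0.01 and -0.03. The counts moved with single arrays: with HSF1 shRNA they were 10 without scrambled array 1, 7 without scrambled array 3 and 10 without HSF1 array 3, and with RPA1 shRNA 16 without scrambled array 2, 14 without RPA1 array 1 and 45 without RPA1 array 3. Between the knockdowns 13 were called (4.33%, 4 higher and 9 lower with RPA1 shRNA). Over all genes 24.4% were called, 9.71% higher and 14.7% lower. The count of 13 became 5 without HSF1 array 1 or RPA1 array 1 and 26 without RPA1 array 3. The split became 9 higher and 6 lower with median scaling.

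Mature sequences from RefSeq (GRCm38.p6) were used for 35 of the 39 rows called in any comparison, leaving out Mir145a, Mir133a-1, Mir1a-2 and Mir297b. They are printed for 2 pairs of called genes that share a seed, bases 2 to 8, which sets the targets a microRNA recognises, and for 2 of the rows that fell most with RPA1 shRNA. Capitals mark the seed.
mmu-miR-15a-5p: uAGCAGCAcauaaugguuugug
mmu-miR-15b-5p: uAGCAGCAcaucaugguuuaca
mmu-miR-130a-3p: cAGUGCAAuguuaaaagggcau
mmu-miR-301a-3p: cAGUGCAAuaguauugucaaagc
mmu-miR-199b-3p: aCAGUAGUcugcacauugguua
mmu-miR-99a-5p: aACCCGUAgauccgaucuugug
The first pair shares AGCAGCA and comes from chromosomes 14 and 3, and the second shares AGUGCAA and comes from chromosomes 2 and 11. Mir301, the source of miR-301a, and the uncalled rows with these seeds were chosen after their values were seen, for the shared seed. Both seeds were picked because called rows share them, and other seeds shared by called rows are not shown. The counts of called rows with each seed below are therefore set in part by that choice.

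Mir15a was at 8.96, 9.09 and 9.25 in the scrambled arrays, 8.61, 8.61 and 7.83 with HSF1 shRNA and 8.15, 8.26 and 8.63 with RPA1 shRNA. It fell by 0.75 ± 0.21 with each shRNA (limma adjusted p of 0.034 and 0.02), with HSF1 array 3 lowest. Mir15b was at 6.61, 6.62 and 6.53, then 6.01, 6.20 and 5.41, then 5.74, 5.88 and 6.16 in the same order, and fell by 0.71 ± 0.18 and 0.66 ± 0.18 (0.024 and 0.019). In both rows all 6 knockdown arrays lay below every scrambled array. Of the 6 tested rows with this seed, 2 were called with each shRNA, and the other 4 (Mir16-1, Mir16-2, Mir195a and Mir497) ranged from -0.24 to 0.14 with HSF1 shRNA and from -0.32 to 0.03 with RPA1 shRNA. Mir130a was at 6.33, 6.5 and 6.41, then 5.87, 5.94 and 5.33, then 5.32, 5.44 and 5.94, and fell by 0.70 ± 0.18 and 0.84 ± 0.18 (0.029 and 0.0065). Of the 3 tested rows with its seed, Mir301 fell with RPA1 shRNA (-0.63 ± 0.20, 0.037) and was at -0.63 ± 0.20 with HSF1 shRNA (0.061), and Mir130b passed with neither (-0.05 and 0.01). Mir199b was at 7.27, 7.15 and 7.55, then 7.10, 6.96 and 6.87, then 5.95, 6.12 and 6.68, the largest fall of any microRNA row with RPA1 shRNA (-1.07 ± 0.17, adjusted p = 0.0013). In Mir15a, Mir15b, Mir130a and Mir199b RPA1 array 3 lay nearest to the control among the RPA1 arrays and HSF1 array 3 farthest from it among the HSF1 arrays. Mir99a, at 6.95, 7.13 and 7.22 in the scrambled arrays, 6.58, 6.55 and 6.35 with HSF1 shRNA and 6.24, 6.46 and 6.44 with RPA1 shRNA, fell by 0.60 ± 0.09 and 0.72 ± 0.09 (0.0025 and 0.00036). Mir452 fell by 0.47 ± 0.13 and 0.81 ± 0.13 (0.032 and 0.0011), and Mir505 by 0.62 ± 0.14 and 0.50 ± 0.14 (0.017 and 0.026). Mir186 and Mir145a fell by 0.79 ± 0.16 and 0.63 ± 0.12 with HSF1 shRNA (0.0096 and 0.0071), and with RPA1 shRNA they were at -0.44 and 0.14 (0.065 and 0.43). Mir568 fell by 0.69 ± 0.23 with RPA1 shRNA (0.047), where its arrays at 7.45, 7.31 and 8.21 overlapped the control at 8.01, 8.46 and 8.56, and without RPA1 array 3 the difference was -0.96. Mir145a was 0.77 ± 0.12 higher with RPA1 than with HSF1 shRNA (adjusted p = 0.0018).

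Some microRNA genes lie inside another gene, whose RNA the same row may follow if both are on the same strand. Genes were matched by position only and strand was not compared, so the counts below may include genes on the opposite strand. Of the rows lower with HSF1 shRNA, 7 lie inside a tested gene, and 2 of those 7 genes (Mcm7 and Slit3) were called lower and 0 higher. Over all genes 6.21% were called lower and 9.89% higher with HSF1 shRNA. Of the rows lower with RPA1 shRNA, 13 lie inside a tested gene. Of those 13 genes 5 (Smc4, Dnm1, Slit3, Sfmbt2 and Gabre) were called lower, 2 higher and 6 neither. Over all genes 14.7% were called lower and 15.4% higher with RPA1 shRNA, and counts this small cannot tell the overlapping genes from genes in general. Whether the fall of a row follows its transcription or its processing by the members described above was not tested.

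**Figure D5:**
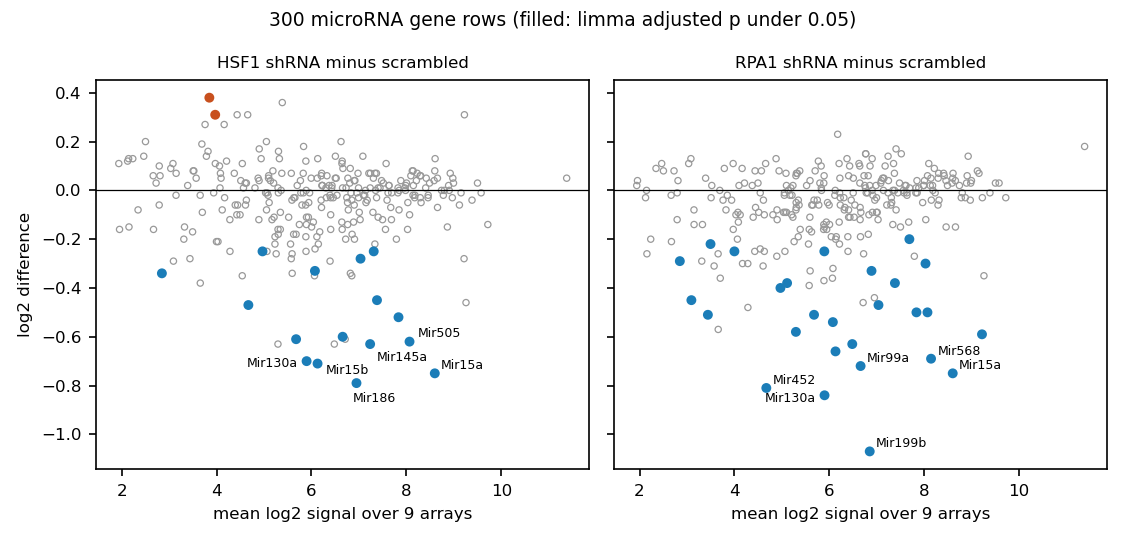
Log2 difference (vertical axis) against mean log2 signal over the 9 arrays (horizontal axis) for 300 microRNA gene rows, for HSF1 and RPA1 shRNA, filled where the limma adjusted p is under 0.05. Filled points lie almost all below 0, with 16 of 18 for HSF1 shRNA and 27 of 27 for RPA1 shRNA.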

How the data were processed

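Expression was measured on 9 arrays, 3 per group. The deposited values are log2 signals, 1 per row and array; RMA in Partek 6.5 made them, per the submitters' processing notes. The log2 scale is not stated and was inferred from the range of the values. Array medians lay between 7.72 and 7.81, and the small number of arrays limits precision. Of 35557 rows, the 21789 that carry exactly 1 gene symbol were used, leaving out 1621 with several symbols and 12147 not named here. For 999 genes with more than 1 row the row of the highest mean was kept. No filter on dim genes was applied.

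All 9 arrays entered 1 limma fit (limma 3.58.1, R 4.3.3) with a mean for each group, followed by eBayes and Benjamini-Hochberg adjustment over 19938 genes in each of 3 contrasts. A gene was called at a two-sided adjusted p under 0.05. Errors are standard errors from limma. The procedure was tested on simulated data. Pathway partners named are, per role and comparison, among the 4 called genes with the largest change, and the microRNA rows named are among the 6 with the largest change. The members and gene lists were chosen with earlier results of these data known. Alternatives were other scalings, a dim-gene filter, limma-trend, array weights, only the arrays compared, a replicate block, the mean of a gene's rows and leaving out each array. Mature microRNAs and promoters came from RefSeq, and the promoter of Ago2 was not analysed here.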

Additional observations from a re-analysis of the deposited data

How the results depend on the processing

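Of 483 member values under 18 alternatives, 449 kept direction and side of the threshold. In all alternatives Tarbp2 kept its call with HSF1 shRNA, Dicer1, Drosha, Ago1, Ago2 and Tarbp2 theirs with RPA1 shRNA, and Drosha, Dgcr8, Ago1 and Ago2 theirs between the knockdowns. Values of Ago1, Ago3, Ago4 and Tarbp2 that were not called changed sign. With HSF1 shRNA, Ago1 became 0.00 (rounded) with median scaling and cyclic loess and ranged from -0.01 to 0.07 over single arrays left out. Ago3 became -0.03 with median scaling, -0.02 with quantile scaling and cyclic loess, -0.03 with array weights, and ranged from -0.05 to 0.03 over single arrays left out. Ago4 with RPA1 shRNA ranged from -0.20 to 0.07, and between the knockdowns from -0.07 to 0.19. Tarbp2 between the knockdowns was -0.05 with array weights and ranged from -0.03 to 0.14 over single arrays left out. Array weights gave RPA1 array 3 the lowest weight (0.21), called Ago3 lower with RPA1 shRNA (-0.29, limma adjusted p = 0.00084) and against HSF1 shRNA (-0.26, 0.0024), and Dgcr8 higher with RPA1 shRNA (0.12, 0.021).

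Counts of microRNA rows depended on the processing. Among genes above the median gene they were 1, 3 and 1 of 31 (HSF1, RPA1, between knockdowns), and with array weights 37, 90 and 55. With array weights 36 partners differed between the knockdowns. With only the 6 arrays compared these were 12 partners and 5 microRNA rows. Over single arrays left out, members called ranged from 1 to 3, 5 to 7 and 4 to 5, partners from 13 to 26, 22 to 40 and 12 to 30, and microRNA rows from 7 to 24, 14 to 45 and 5 to 26. Where an array was left out of a group, the others shared 1 estimate of spread.

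The labels give each group replicates 1 to 3, but 0 of 9 same-numbered pairs of arrays deviated together (correlation over 0.1) and 4 of 9 arrays correlated best with their own number, so the numbers were not taken to pair arrays. With the replicate block, members called were 2, 6 and 4, partners 17, 30 and 20, and microRNA rows 14, 27 and 11. Only Dgcr8 lost a member call under the block (with HSF1 shRNA, limma adjusted p = 0.076). The signal over background was not measured, and Ago4 and most microRNA rows lay below the median gene.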
